A study of Arabidopsis with 8 samples.

Results

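Glutathione S-transferases (GSTs) were followed in leaves of the Arabidopsis thaliana ecotypes Ler (Landsberg erecta) and Sha, grown with or without NaCl. The members were 38 loci named as GSTs of the tau class (28 loci, GSTU1 to GSTU28), the phi class (9 loci, GSTF2, GSTF3, GSTF6 to GSTF11 and GSTF14) and the zeta class (1 locus, GSTZ1). They were found by matching the RefSeq accessions of the array probes to locus identifiers. A total of 37 loci had a matched and tested probe, of 21520 loci with a tested probe in the whole data set, and GSTU21 was not analysed here. Each ecotype had a control and a salt group, which made 4 groups. Seedlings were moved at 10 days after sowing to medium with 0 or 100 mM NaCl, and leaves were taken 4 days later from 30 or more seedlings of each plate. Each group had 2 arrays, described as biological replicates, each hybridised with labelled RNA of 1 sample.

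GSTs join the tripeptide glutathione to reactive or foreign compounds, or bind such compounds without changing them. The conjugates are moved into the vacuole by ABC transporters. The tau and phi classes are plant-specific, occur as tandem repeats on the chromosomes, and include many genes known to respond to herbicides, pathogens, hormones and oxidative stress. The zeta class takes part in tyrosine breakdown. GST transcripts are widely used as markers of oxidative and chemical stress in leaves, and the comparisons below ask which members responded to salt, and which differed between an ecotype described as salt tolerant (Sha) and a more sensitive ecotype (Ler).

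Each value is the log2 background-corrected spot signal minus the 75th percentile of its own array, called scaled signal here, so that a value of 0 equals the 75th percentile. The 75th percentile of signal ranged from 1534 (Ler control replicate 1) to 4167 (Sha control replicate 2) intensity units, and 72.5% to 79.0% of spots were well above background. Every GST probe was well above background on all 8 arrays, except that of GSTU15, which was not well above background on either Ler control array. A locus was called when its adjusted p from limma was below 0.05 and its change was over 2-fold. The 53 matched probes included several per locus at 10 loci, where the brightest probe was used. Signals of different probes were not compared with each other.

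The labelled tissue was leaf, and all 5 leaf markers (RBCS1A, RBCS2B, LHCB1.1, LHCB2.1 and CA1) were well above background in every group. All 7 root markers, among them the endodermal gene CASP1 and the root hair genes EXPA7 and COBL9, were also well above background in every group. The summed root marker signal lay at 2.97 to 3.09 in Ler control, 1.45 to 1.55 in Ler salt, 3.42 to 3.46 in Sha control and 1.07 to 1.15 in Sha salt on the log2 scale, with 4 of 7 root markers called down in Ler and 7 of 7 in Sha. All 4 seed storage markers were at background in Ler control and well above it in the other 3 groups. The summed leaf marker signal was 8.88 to 9.51 in Ler control, 7.93 to 8.13 in Ler salt, 8.36 to 8.78 in Sha control and 8.08 to 8.49 in Sha salt. Of the 5 leaf markers, 3 were called down with salt in Ler and 1 in Sha. CA1 was down in both (19-fold and 6.98-fold). The part of these markers' tissues in the GST changes was not tested, and in such bulk samples fewer cells of a type and less RNA per cell cannot be told apart.

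Salt raised a larger share of the family than of all tested loci, while the share that fell was nearer to that of all loci. In Ler, 15 of 37 GST loci rose (40.5%) and 7 fell (18.9%), against 13.1% of all tested loci called up and 15.5% called down. In Sha, 13 rose (35.1%) and 9 fell (24.3%), against 14.1% and 17.9% of all loci. The median size of the change, whatever its sign, was 1.24 on the log2 scale for the GST loci in Ler and 1.38 in Sha, against 0.54 and 0.60 over all loci. The signed medians were 0.16 in Ler and 0.21 in Sha, against -0.08 and -0.09 over all loci. Of the 37 loci, 13 rose in both ecotypes (35.1%) and 7 fell in both (18.9%), against 10.3% and 12.5% of all tested loci. The 15 in Ler and these 13 include GSTU15, which was at background in Ler control and for which the rise in Ler was at least 1.19-fold. No GST locus was called in opposite directions in the 2 ecotypes, and 0.167% of all loci were.

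**Figure D1:**
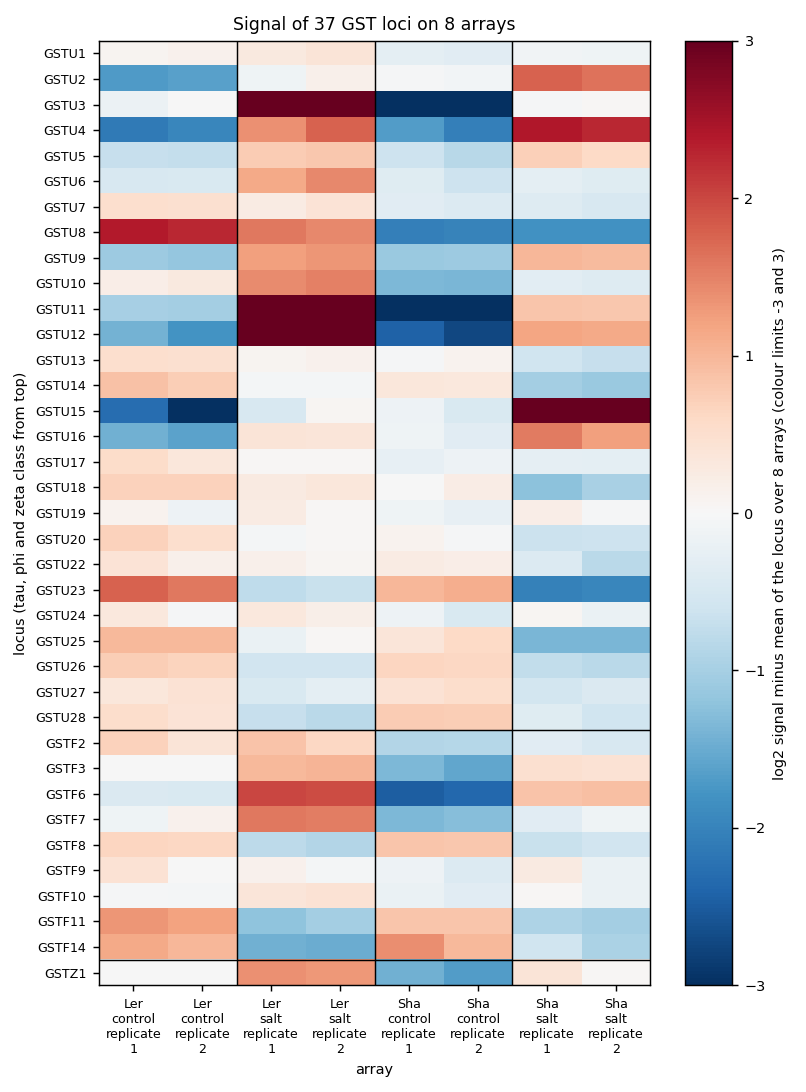
Scaled signal of the 37 GST loci (rows) on the 8 arrays (columns), as the log2 difference from each locus's mean over all arrays, with colour limits at -3 and 3. The 2 arrays of each group carried similar colours at most loci, and the rows of GSTU3, GSTU11 and GSTU15 spanned the widest range.

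The steepest rises were in the tau class. GSTU12 (AT1G69920) read -4.98 and -5.36 in Ler control, -0.57 and -0.50 in Ler salt, -6.00 and -6.30 in Sha control, and -2.39 and -2.44 in Sha salt. It rose 24.8-fold in Ler (log2 change 4.63 ± 0.16, standard error, adjusted p = 4.09e-06) and 13.3-fold in Sha (3.74 ± 0.16, adjusted p = 6.93e-06). Its neighbour GSTU11 (AT1G69930) read -2.43 and -2.46, then 1.85 and 1.91, in Ler without and with salt, and -4.57 and -4.53, then -0.61 and -0.63, in Sha. The salt arrays of each ecotype lay far above its control arrays at both loci, with changes of 20.0-fold in Ler and 15.2-fold in Sha for GSTU11.

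GSTU3 (AT2G29470) read -3.21 and -3.06 in Ler control against 0.90 and 1.14 in Ler salt, a 17.8-fold rise (4.15 ± 0.14). In Sha it read -7.16 and -6.87 in control against -3.08 and -3.01 with salt, a 15.6-fold rise (3.97 ± 0.14), so that Sha with salt only reached the range of Ler without salt. The adjacent GSTU4 (AT2G29460) read -2.54 and -2.38, then 0.95 and 1.34, in Ler, and -2.09 and -2.48, then 1.97 and 1.83, in Sha. It rose 12.2-fold in Ler and 18.2-fold in Sha, with adjusted p of 1.65e-05 and 7.97e-06, and its control arrays overlapped between the ecotypes.

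The other tau risers moved less. GSTU9 rose by 2.40 in Ler and 2.06 in Sha on the log2 scale, GSTU5, an auxin-inducible member, by 1.49 and 1.38, and GSTU2 by 1.67 and 1.75. GSTU16 (AT1G59700) read -0.60 and -0.76 in Ler control, 1.23 and 1.22 in Ler salt, 0.72 and 0.50 in Sha control, and 2.41 and 2.08 in Sha salt, rises of 3.74-fold and 3.12-fold. GSTU10 rose 2.36-fold in Ler, and in Sha its change of 0.99 (1.99-fold, adjusted p = 7.35e-05) lay just under the 2-fold limit. GSTU6 was also called in Ler and not in Sha, and is described with the tests of the difference below.

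GSTU15 (AT1G59670), next to GSTU16, was the member measured least firmly. It read -8.85 and -9.55 in Ler control, where neither array was well above background, -7.03 and -6.51 in Ler salt, -6.71 and -7.01 in Sha control and -3.33 and -3.50 in Sha salt. With Ler control set to the detection floor of its arrays, where that was higher, the rise in Ler was at least 1.19-fold (adjusted p = 4.90e-04 on the measured values). The rise in Sha was measured on both sides and came to 10.9-fold (3.45 ± 0.28, adjusted p = 9.44e-05). With the normexp background correction no GSTU15 change passed the test, the change with salt being 1.19 in Ler and 2.26 in Sha.

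Of the 9 phi loci among the members, 3 rose and 3 fell in each ecotype (33.3% each), and they were the same loci. The shares of all loci are given above, and further phi loci outside the members are described below. GSTF6, known for its part in the synthesis of the phytoalexin camalexin, read 2.76 and 2.75 in Ler control, 5.20 and 5.17 in Ler salt, 0.73 and 0.85 in Sha control and 4.07 and 4.11 in Sha salt. It rose 5.38-fold in Ler and 9.87-fold in Sha (adjusted p = 2.66e-06 and 9.87e-07), and its second probe gave log2 rises of 2.75 and 3.51. GSTF7, its neighbour, rose by 1.56 and 1.09, the latter falling to 0.99 without Sha salt replicate 2. GSTF3 rose by 1.00 in Ler, at the limit, and by 1.91 in Sha, and its call in Ler was lost without Ler salt replicate 2 (0.97). GSTZ1, the zeta member and a maleylacetoacetate isomerase, rose by 1.35 and 1.77 with the probe used, and by 1.52 and 1.92 with its other probe.

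Falls were led by GSTF14, GSTU23 and GSTF11 in Ler, and by GSTU23, GSTF14 and GSTU25 in Sha. GSTU23 (AT1G78320) read -0.72 and -0.89 in Ler control, -3.25 and -3.16 in Ler salt, -1.49 and -1.40 in Sha control and -4.50 and -4.44 in Sha salt, a 5.30-fold fall in Ler and an 8.13-fold fall in Sha (adjusted p = 5.15e-06 and 2.09e-06). GSTF14 (AT1G49860) read 0.51 and 0.36 in Ler control, -2.08 and -2.12 in Ler salt, 0.77 and 0.33 in Sha control, and -1.24 and -1.58 in Sha salt. GSTF11 (AT3G03190), linked to glucosinolate synthesis, read 0.52 and 0.40, then -2.00 and -1.83, in Ler, and 0.03 and 0.03, then -1.72 and -1.83, in Sha. The 2 phi loci fell 5.79-fold and 5.18-fold in Ler, and 3.89-fold and 3.50-fold in Sha, and no salt array overlapped a control array of its ecotype.

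GSTU25 (AT1G17180), an enzyme known to act on the explosive trinitrotoluene, read 2.68 and 2.68 in Ler control, 1.52 and 1.74 in Ler salt, 2.09 and 2.32 in Sha control and 0.35 and 0.35 in Sha salt. It fell 2.08-fold in Ler and 3.64-fold in Sha, and the call in Ler was lost without Ler salt replicate 1 (-0.94). GSTF8, the promoter of which is a classic reporter of hydrogen peroxide and salicylic acid, fell by 1.46 in Ler and by 1.44 in Sha on the log2 scale, GSTU26 by 1.28 and by 1.40, and GSTU28 by 1.22 and by 1.23. GSTU14 and GSTU18 were called down in Sha (-1.40 and -1.22) but not in Ler (-0.86 and -0.40), where both passed the adjusted p without reaching 2-fold. Root marker genes and the leaf marker CA1 fell in the same arrays, in which the GST rises given above were also read. The part of root or leaf tissue in either was not tested.

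A further 13 loci were called in neither ecotype. They included GSTU19, GSTU24 and GSTF9, with changes from -0.17 to 0.31 that did not pass the test with the probe used. Another GSTU19 probe gave 0.36 in Ler and 0.27 in Sha, past the adjusted p but below 2-fold. Its remaining probe did not pass in either ecotype. GSTU20, which binds the jasmonate-conjugating enzyme FIN219, fell by 0.61 in Ler and by 0.68 in Sha, and GSTU27 by 0.77 and by 0.96, all past the adjusted p but below 2-fold. GSTU8 fell by 0.81 in Ler and gave 0.21 in Sha. The remaining loci were GSTU1, GSTU7, GSTU13, GSTU17, GSTU22, GSTF2 and GSTF10, with changes between -0.83 and 0.45.

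**Figure D2:**
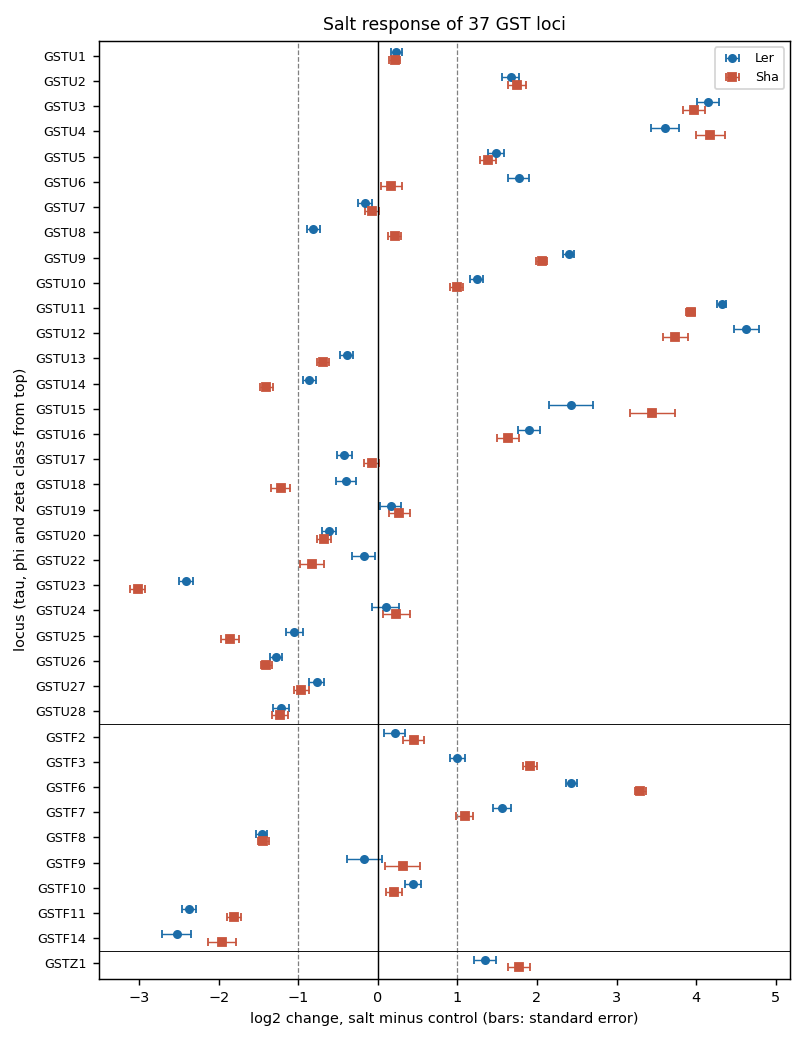
Log2 change with salt (salt minus control) for each of the 37 GST loci in Ler (blue circles) and Sha (red squares), with bars for the standard error and dashed lines at the 2-fold limits. GSTU3, GSTU4, GSTU11 and GSTU12 lay above 3 in both ecotypes, and GSTU6 was the locus with the widest gap between the ecotypes (1.77 in Ler and 0.17 in Sha).

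Control and salt arrays of the same ecotype and replicate number shared a slide, so the salt change could be taken within each slide. All 22 called loci in Sha kept their direction on both slides, as did 21 of 22 in Ler. The loci were called from these same arrays, so this shared direction is largely set by the call and gives no separate support. The remaining locus in Ler was GSTU15, for which no within-slide change was read because its control arrays were at background. Without it, the gap between the changes on the 2 slides was at most 0.45 on the log2 scale in Ler and 0.27 in Sha, both for GSTU12.

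Many of the GST loci sit next to each other. By the RefSeq annotation of TAIR10.1, 27 of 38 members fell into 9 groups in which each member lay within 20 kb of the previous member. The largest group, on chromosome 2, runs from GSTU7 through GSTU1. Its 5 inner members GSTU6, GSTU5, GSTU4, GSTU3 and GSTU2 all rose with salt in Ler, by 1.49 to 4.15 on the log2 scale, and all of them but GSTU6 rose in Sha. The members at the ends did not pass the 2-fold limit, with -0.16 in Ler and -0.07 in Sha for GSTU7 and with 0.23 and 0.21 for GSTU1.

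The second group, on chromosome 1, holds GSTU23, GSTU22, GSTU21, GSTU20 and GSTU19 in that order. GSTU23 was called down in both ecotypes, and the other 3 measured members were called in neither. In the third, GSTU25 and GSTU26 fell in both ecotypes and GSTU24 did not (0.10 and 0.23). GSTU11 with GSTU12, GSTU15 with GSTU16, and GSTF6 with GSTF7 rose together, whereas GSTF9 with GSTF10 were called in neither ecotype. No group held members called in opposite directions by salt, but the groups were built from the members only. GSTF5 and GSTF4, which are not members and are described below, lie next to GSTF6 on chromosome 1. In Sha, GSTF5 was called up (2.85), as were GSTF6 and GSTF7, whereas GSTF4 was called down (-1.10). GSTF4 read -0.42 and -0.38 in Sha control and -1.51 and -1.49 in Sha salt. In Ler, GSTF4 read 0.16 and 0.03, then -0.82 and -0.93, and was not called (-0.97). Probe sequences were not used here, so hybridisation of a probe to a near-identical neighbour was not tested.

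**Figure D3:**
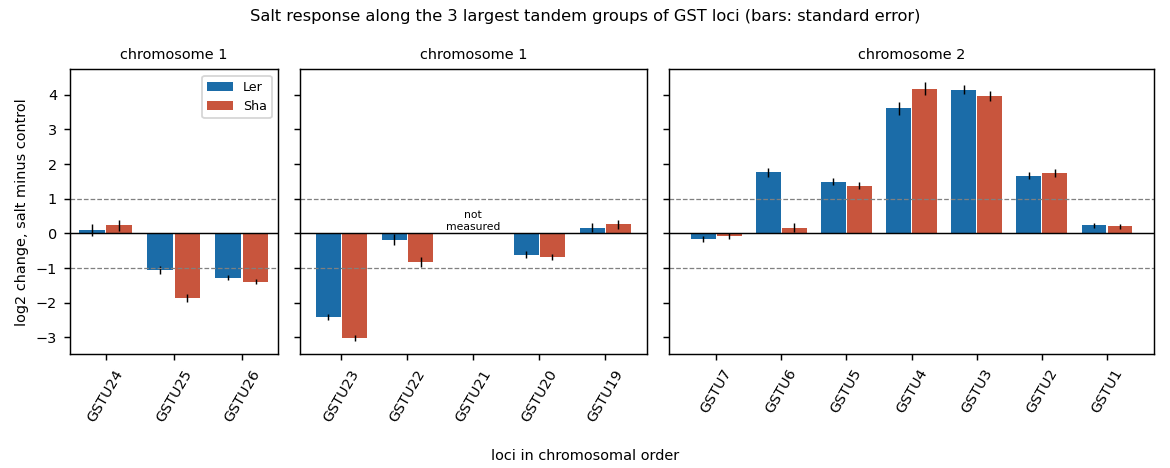
Log2 change with salt for the members of the 3 largest tandem groups in chromosomal order, with bars from 0 for Ler (blue) and Sha (red), standard errors, and dashed lines at the 2-fold limits. On chromosome 2 the 5 inner loci rose in Ler and the end loci GSTU7 and GSTU1 stayed between -0.16 and 0.23.

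The ecotypes differed mainly by lower GST signal in Sha. In the absence of salt, 9 of 37 loci were lower in Sha (24.3%) and 3 higher (8.11%), against 6.89% and 5.09% of all tested loci. The 3 higher loci include GSTU15, which was at background in Ler control and for which the bound was at least 1.12-fold. In the presence of salt, 14 were lower (37.8%) and 3 higher (8.11%), against 8.32% and 5.85% of all loci. The median difference of the GST loci was -0.45 without and -0.53 with salt, against -0.01 and -0.02 over all loci. Past the adjusted p but by less than 2-fold, a further 11 loci were lower in Sha without salt and none was higher, against 15.8% and 16.4% of all loci. With salt, 9 were lower and 2 higher (GSTU4 and GSTF14), against 18.0% and 16.4%.

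**Figure D4:**
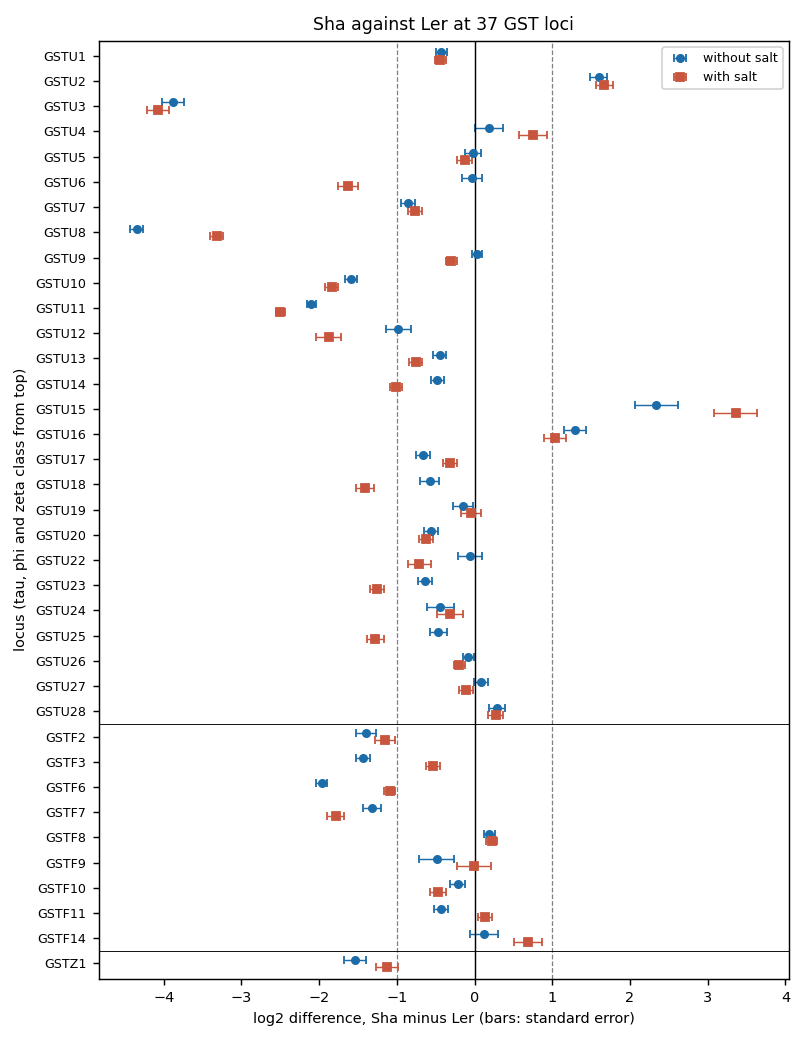
Log2 difference between ecotypes (Sha minus Ler) for each of the 37 GST loci without salt (blue circles) and with salt (red squares), with bars for the standard error and dashed lines at the 2-fold limits. GSTU3 and GSTU8 lay farthest to the left, near -4. GSTU2, GSTU15 and GSTU16 were the loci to the right of the 2-fold line in both conditions, with GSTU15 at background in Ler control.

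GSTU8 (AT3G09270) showed the widest ecotype difference. It read 4.31 and 4.19 in Ler control and 3.50 and 3.38 in Ler salt, against -0.12 and -0.07 in Sha control and 0.12 and 0.11 in Sha salt. Sha was 20.3-fold lower without salt (-4.35 ± 0.08, adjusted p = 3.92e-06) and 9.99-fold lower with salt (-3.32 ± 0.08, adjusted p = 5.26e-06), with every Ler array above every Sha array. GSTU3 was 14.7-fold lower in Sha without and 16.7-fold lower with salt, from the readings given above. GSTU11 was 4.30-fold and 5.64-fold lower, although it rose steeply in both ecotypes.

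Among the phi loci, GSTF2, which binds auxin and camalexin, was lower in Sha by 2.63-fold without and 2.23-fold with salt, and its 4 probes gave log2 differences of -1.24 to -2.08 without salt. GSTF6 was 3.91-fold and 2.13-fold lower and GSTF7 2.50-fold and 3.47-fold lower, whereas GSTF3 was 2.71-fold lower without salt and 1.44-fold lower with salt. GSTU10 was 3.01-fold and 3.57-fold lower. GSTZ1 was lower in Sha by 1.54 and by 1.13 on the log2 scale with its brighter probe, but its other probe gave -0.56 and -0.16, which were not called. The call with salt for GSTZ1 was also lost without Sha salt replicate 2 (-0.95) and with scan day as a block, where it lay just inside the 2-fold limit.

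The 3 loci that were higher in Sha lay in the tau class. GSTU2 (AT2G29480) read -3.06 and -2.98 in Ler control and -1.48 and -1.21 in Ler salt, against -1.39 and -1.44 in Sha control and 0.40 and 0.26 in Sha salt. It was 3.04-fold higher in Sha without and 3.19-fold higher with salt (adjusted p = 1.60e-04 and 1.16e-04), next to GSTU3, which was called in the opposite direction. GSTU16 was 2.45-fold higher in Sha without salt and 2.04-fold higher with salt, with 1.29 and 1.03 on the log2 scale for the probe used and 1.31 and 1.15 for its other probe, and without Sha salt replicate 1 the difference with salt was 0.86 and not called. GSTU15 was higher in Sha by at least 1.12-fold without salt and by 10.2-fold with salt, where the normexp correction gave 1.00 on the log2 scale and no call.

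With salt, 6 further loci were lower in Sha that were not called without it. GSTU12 was 3.67-fold lower with salt, and its difference without salt, -0.98, lay just under the limit and passed it when Ler control replicate 2 (-1.17) or Sha control replicate 1 (-1.13) was left out. GSTU23, GSTU25, GSTU18 and GSTU14, which all fell with salt in Sha, were lower there by 1.26, 1.28, 1.41 and 1.01 on the log2 scale. The second probe of GSTU18 gave -0.52 with salt and was not called, and the GSTU14 value was -0.97 without Sha salt replicate 2. The sixth was GSTU6. Each array slide held a single ecotype, so the ecotypes were compared only between slides. All replicate 1 arrays were scanned on day 1, the replicate 2 arrays of Ler on day 2 and those of Sha on day 3. Whether the alleles of either ecotype match probes designed on the reference sequence was not tested. A lower Sha signal at a single-probe locus such as GSTU8 or GSTU3 cannot be told apart from a weaker match in Sha. Nor can a higher one, as at GSTU2 or GSTU15, from a weaker match in Ler.

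**Figure D5:**
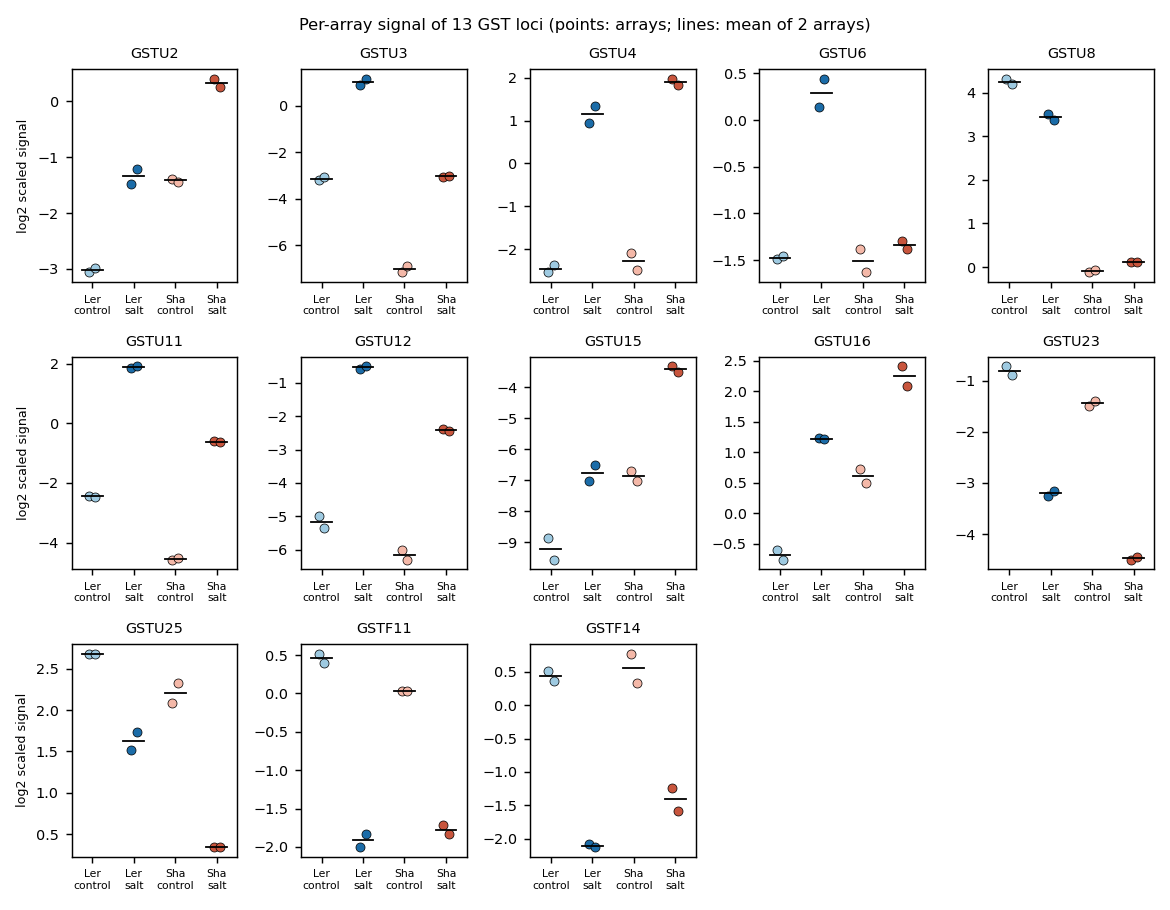
Scaled log2 signal of 13 GST loci on each array (points) in the 4 groups, with lines for the mean of 2 arrays and a separate vertical scale for each locus. GSTU6 was highest on the Ler salt arrays, GSTU8 was high on the 4 Ler arrays, and GSTU2 was highest in Sha salt.

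The salt response itself differed between the ecotypes at a share of GST loci near, and slightly under, that of all tested loci. Sha minus Ler, 1 locus was called up (2.70%) and 1 down (2.70%), against 4.02% and 4.74% of all tested loci, and the median size of the difference was 0.34 for the GST loci and 0.31 over all loci. GSTU6 (AT2G29440) read -1.49 and -1.46 in Ler control and 0.14 and 0.44 in Ler salt, but -1.38 and -1.63 in Sha control and -1.30 and -1.38 in Sha salt. Its 3.40-fold rise in Ler (adjusted p = 7.38e-05) stood against a change of 0.17 ± 0.13 in Sha (adjusted p = 0.293), a difference of -1.60 ± 0.18 (adjusted p = 0.00376). The control arrays of the ecotypes overlapped at this locus, and the Ler salt arrays lay above all others.

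GSTU8 was the locus called in the other direction. It fell by 0.81 ± 0.08 in Ler and changed by 0.21 ± 0.08 in Sha, a difference of 1.03 ± 0.11 (adjusted p = 0.00338), at the very different starting levels given above. This difference was 0.96, and not called, without Ler control replicate 1 and without Ler salt replicate 2, and 0.76 under quantile normalization. Another 9 loci passed the adjusted p without reaching 2-fold, 3 with a positive difference (8.11%) and 6 with a negative one (16.2%). Over all tested loci these shares were 7.47% and 9.37%. The rise was larger in Sha for GSTF6 (difference 0.87) and GSTF3 (0.91) and smaller for GSTU12 (-0.90) and GSTU11 (-0.39), while the fall was smaller in Sha for GSTF11 (0.57) and larger for GSTU14, GSTU18, GSTU23 and GSTU25 (-0.53 to -0.82). For GSTU12 the difference passed 2-fold without Ler control replicate 1 (-1.09) and without Sha control replicate 2 (-1.05), and under quantile normalization (-1.14).

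Gene lists for the rest of the glutathione system were read the same way. With salt, 13.1% of all tested loci were called up and 15.5% down in Ler, and 14.1% and 17.9% in Sha. The shares for the other comparisons are given above. The lists are short and were not tested as sets, so their counts describe single genes only. In 15 loci of other GST groups (further phi members and the theta, lambda, dehydroascorbate reductase and related classes), of which 14 were tested, GSTF5 and GSTF12 rose in both ecotypes and GSTF13 fell in both, with GSTF4 also down in Sha. GSTF12, needed to carry anthocyanins to the vacuole, rose by 2.21 in Ler and 2.17 in Sha on the log2 scale, and GSTF13 fell by 2.20 and by 2.46. GSTF5 (AT1G02940) read -8.67 and -8.48 in Ler control, where both arrays were at background, -5.21 and -5.04 in Ler salt, -6.87 and -7.26 in Sha control and -4.17 and -4.25 in Sha salt. It rose by 2.85 in Sha and at least 3.74-fold in Ler. GSTZ2 (AT2G02380), the other zeta member, read -4.51 and -4.24 in Ler control, -4.30 and -4.02 in Ler salt, -7.09 and -6.23 in Sha control and -6.29 and -6.60 in Sha salt. Every Sha array lay below every Ler array, and GSTZ2 was 4.87-fold lower in Sha without salt and 4.86-fold lower with salt, and GSTL1 was also lower in both conditions.

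Among 9 genes of glutathione synthesis, reduction and breakdown, GGCT2;1 (AT5G26220), which degrades cytosolic glutathione, read -3.66 and -3.60 in Ler control, 1.31 and 1.20 in Ler salt, 0.06 and 0.03 in Sha control and 2.20 and 2.14 in Sha salt. It rose 29.6-fold in Ler and 4.35-fold in Sha, and the difference between the responses was -2.76 ± 0.10 (adjusted p = 2.01e-04). It was 12.8-fold higher in Sha than in Ler without salt. GGT4 also rose in Ler (1.20), and GGT1 and GR1, the cytosolic glutathione reductase, rose in Sha (1.08 and 1.01). The synthesis genes GSH1 and GSH2 were called in no comparison, with changes from -0.58 to 0.43.

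None of the 8 glutathione peroxidase family genes was called with salt in Ler, whereas GPX7 (1.50) and GPX6 (1.44) rose and GPX1 (-1.24) fell in Sha. GPX7 (AT4G31870) read -1.44 and -1.28 in Ler control, -1.26 and -1.07 in Ler salt, -0.75 and -1.01 in Sha control and 0.80 and 0.43 in Sha salt, with the Sha salt arrays above all others. GPX6 (AT4G11600) read 3.88 and 3.70 in Ler control, 4.13 and 4.12 in Ler salt, 2.53 and 2.36 in Sha control and 4.01 and 3.76 in Sha salt, with the Sha control arrays below all others. The difference between the responses was called for GPX7 (1.30) and GPX6 (1.11). GPX6 was lower in Sha without salt (-1.34) and GPX7 higher with salt (1.78).

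The transporter list held 4 genes of the ABCC family, of which ABCC1 and ABCC2 are known for moving conjugates into the vacuole. ABCC3 (AT3G13080) read 0.18 and 0.53 in Ler control, 2.97 and 3.06 in Ler salt, -0.27 and -0.22 in Sha control and 2.77 and 2.78 in Sha salt. It rose 6.32-fold in Ler and 8.09-fold in Sha. ABCC4 (AT2G47800), known from the plasma membrane of guard cells, read 0.95 and 1.00 in Ler control, 1.74 and 1.74 in Ler salt, 1.58 and 1.54 in Sha control and 3.41 and 3.40 in Sha salt. It rose in Sha (1.85) and gave 0.77 in Ler, a called difference of 1.08, and it was higher in Sha with salt (1.67).

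Of 10 genes of the xenobiotic and oxylipin response, CYP81D8, a cytochrome P450 induced by many chemicals, read -2.57 and -2.53 in Ler control, 3.43 and 3.38 in Ler salt, -4.21 and -4.14 in Sha control and 2.40 and 2.37 in Sha salt. It rose 62.1-fold in Ler and 94.5-fold in Sha. UGT74E2, a glucosyltransferase acting on indole-3-butyric acid, rose 13.1-fold and 14.3-fold, and was 2.06-fold higher in Sha with salt. UGT73B5 (AT2G15480), a glucosyltransferase, read 3.20 and 2.80 in Ler control, 4.04 and 3.67 in Ler salt, 0.77 and 0.76 in Sha control and 2.70 and 2.45 in Sha salt. It rose in Sha (1.81) and was 4.72-fold lower in Sha without salt and 2.43-fold lower with salt. CYP81D8 was also lower in Sha, 3.09-fold without and 2.03-fold with salt, and CYP81D11 was 2.03-fold lower without salt. The regulators SCL14, TGA2, TGA5 and TGA6, through which many of these genes are known to be induced, were called in no comparison, with changes from -0.57 to 0.87.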

How the data were processed

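Cy3-labelled RNA of 8 leaf samples was hybridised to Agilent one-colour Arabidopsis 4 arrays, 2 per group. The deposited intensity values are background-corrected spot signals from Agilent Feature Extraction 10.7.1.1, per the file headers. The other deposited columns used were flags and local background. The value table deposited by the authors equalled the scanner intensity values (100%) and was not needed.

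Signals were taken as log2 and reduced by the 75th percentile of the array. Control spots and 31 outlier-flagged probes were left out, and 34659 probes were tested (those flagged well above background on each of the 2 arrays of some group) with limma 3.58.1 in R 4.3.3, over all 8 arrays, with Benjamini-Hochberg adjustment over all probes. Adjusted p below 0.05 and over 2-fold made a call. RefSeq accessions were matched to loci by the TAIR10.1 RefSeq table (34263 probes, 25374 loci). The brightest probe stood for a locus. The fit was tested on simulated data. The GST loci and the gene lists were chosen with earlier results of these data known. Array values are given for the 3 called GST loci with the largest rise and the 3 with the largest fall in each comparison, every GST locus called for the difference between the salt responses, and tandem neighbours called in opposite directions, with the called locus of largest change in each list and comparison. Values of GSTF6 were added after they were seen. The array number limits precision. Where an array group is at background, a fold is a bound against the lowest signal well above background on each array. The p-values measure the spread between these samples only. The growth light period differs between the labels and the methods. Alternatives were other normalizations, filters, blocks and arrays left out. A further root marker is not reported here.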

Additional observations from a re-analysis of the deposited data

Results flagged for a closer look

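The salt response of GSTU6 (AT2G29440) differed between the ecotypes by -1.60 on the log2 scale (Sha minus Ler, 3.03-fold), with a rise in Ler on both slides. The salt response of GSTU8 (AT3G09270) differed by 1.03 in the other direction. Both were brought up because the test of the difference itself passed the adjusted p and the 2-fold limit. No outlying array could be sought within a group, since each group held 2 arrays.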

How the results depend on the processing

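For 99 changes of single GST loci, not all of them called, 1962 values under alternatives were computed. Of these, 1935 left the result as it was, called or uncalled, 20 lost a call, 6 gained one and 1 turned its sign. The sign turned for GSTU15, Sha against Ler without salt, at -0.07 with normexp background correction, where that probe is near background and the median of all probes moved to between -0.21 and 0.14. The number of GST loci called in the salt and ecotype comparisons stayed within 1.5 times under every alternative. Leaving out 1 array gave 14 to 15 loci up and 6 to 7 down with salt in Ler, 13 to 14 and 9 to 10 in Sha, 3 higher and 9 to 10 lower in Sha without salt, and 2 to 3 and 12 to 14 with salt. For the difference between the salt responses, quantile normalization gave 0 up and 2 down. Leaving out 1 array gave 0 to 2 up and 1 to 2 down. With a replicate block, and with the slide as a block, all 10 counts were the same as without (15 up and 7 down with salt in Ler). No call changed. In this balanced layout these blocks leave the log2 changes as they are, so only the p-values could move. Each slide held 1 ecotype, so for Sha against Ler the slide entered only as a correlation between its arrays, estimated at 0.539. The replicate numbers are shared across groups, and deviations of arrays with the same number correlated at 0.21 (Ler) and 0.47 (Sha) within slides and at 0.06 to 0.26 across slides, over 2 arrays per group. GSTU25 lost its call in Ler under quantile normalization (-0.99), GSTU28 with normexp (-0.88), GSTU18 with salt as the mean of its probes (-0.96), GSTU14 with salt under median scaling (-0.96), and GSTZ1 with salt with scan day as a block, where it lay just inside the 2-fold limit and GSTU4 gained a call (1.02). The cause was not tested. Precision is limited by 2 arrays per group, and by low signal for GSTU15.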
